A study of Mus musculus with 20 samples.

Results

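The receptors examined here were 10 G-protein-coupled receptors for neuropeptides and opioids, namely the PACAP receptor Adcyap1r1, the somatostatin receptors Sstr1, Sstr2 and Sstr4, the galanin receptor Galr1, the neuropeptide Y receptors Npy1r and Npy2r, and the opioid receptors Oprm1 (mu), Oprd1 (delta) and Oprk1 (kappa). They were selected by symbol as a class of receptor, with earlier results of these data known. All 10 were found among the 29049 genes with a value in at least 1 library. Whole dorsal root ganglia (DRG) of C57Bl6 mouse embryos at E18.5 (late gestation) were sequenced, and the labels name no treatment or transgene in any group. Each of 10 embryos, 5 male (M1, M3, M5, M7 and M8) and 5 female (F3, F7, F8, F9 and F10), gave 1 library of lumbar DRG (L4-5) and 1 of sacral DRG (L6-S1), which made 20 libraries in 4 groups of 5. The sacral ganglia hold sensory neurons of the pelvic organs, which the study describes as a small part of these ganglia beside far more neurons of somatic targets. It asked which transcripts distinguish the sacral from the lumbar ganglia before birth and whether the sexes differ.

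Neuropeptide receptors sit on the cell body and terminals of sensory neurons and let peptides from neurons, glia and immune cells raise or lower their firing. The receptors for opioids, somatostatin, neuropeptide Y and galanin listed above act mainly through inhibitory Gi/o proteins, which reduce cyclic AMP, close calcium channels and open potassium channels, and the opioid receptors are the targets of morphine-like analgesics. The PACAP receptor differs from them in that it acts mainly through Gs and raises cyclic AMP.

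Levels are in log2 RPKM, in which reads are corrected for exon length and library size, so a difference of 1 is a doubling. Levels of different genes can be compared only as far as the exon length used for each gene holds. Testing with limma was limited to the 14529 genes with a mean of 1 RPKM or more in any of the 4 groups. Of the receptors, Adcyap1r1, Sstr4, Npy1r, Npy2r, Oprm1 and Oprd1 passed this filter, and Sstr1, Sstr2, Galr1 and Oprk1 did not. Adcyap1r1 passed only through its sacral groups and Npy2r only through sacral males, the groups in which they were highest, so for these genes the filter was not independent of the comparison. A gene is said to be called where its Benjamini-Hochberg adjusted p, taken over the whole set of 14529, was at most 0.05.

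In sacral DRG, 2 of the 6 tested receptors were upregulated (Adcyap1r1 and Sstr4) and 1 was lower (Oprd1), while 3 (Npy1r, Npy2r and Oprm1) were not called. The background was 978 called genes of 14529, or 6.73%, with 2.7% of genes higher and 4.03% lower in sacral DRG. Because the receptors were chosen with earlier results of these data known, this is not an independent comparison. With no filter, 2 of the 10 receptors (Adcyap1r1 and Sstr4) were called, against 509 of all 29049 genes, or 1.75%. Oprk1, too low for the filter, was higher in the sacral library of all 10 donors, but it was not called with no filter. The mean level differences of the delta and kappa opioid receptors were of opposite sign, -0.87 and 1.20 on the log2 scale. In whole ganglia, fewer cells of a type and less RNA per cell cannot be told apart.

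The sequences immediately upstream of the 3 called receptors are shown, because these genes carry the level difference. They are the 250 bases before the RefSeq start site (sequence table of GRCm38.p6, in which 7 of the 10 receptors had an entry), written 5′ to 3′ on the strand of the gene. Each matched mm9, the build of the expression data, once on its chromosome and without a mismatch, and ended at the base before the annotated gene start. The mm9 positions are chr6:55401722-55401971 on the plus strand for Adcyap1r1, chr2:148220863-148221112 on the plus strand for Sstr4 and chr4:131700402-131700651 on the minus strand for Oprd1. Capitals mark the GC box, GGGCGG on either strand.
Adcyap1r1: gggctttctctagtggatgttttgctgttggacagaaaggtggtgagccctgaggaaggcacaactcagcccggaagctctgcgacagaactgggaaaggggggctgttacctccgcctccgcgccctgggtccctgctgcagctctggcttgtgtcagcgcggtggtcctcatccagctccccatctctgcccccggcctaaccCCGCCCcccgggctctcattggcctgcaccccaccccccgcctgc
Sstr4: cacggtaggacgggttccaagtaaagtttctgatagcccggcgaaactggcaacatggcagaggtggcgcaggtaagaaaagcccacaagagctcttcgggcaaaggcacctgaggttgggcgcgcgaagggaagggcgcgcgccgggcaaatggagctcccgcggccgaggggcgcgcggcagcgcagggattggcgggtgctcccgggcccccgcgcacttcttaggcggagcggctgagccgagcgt
Oprd1: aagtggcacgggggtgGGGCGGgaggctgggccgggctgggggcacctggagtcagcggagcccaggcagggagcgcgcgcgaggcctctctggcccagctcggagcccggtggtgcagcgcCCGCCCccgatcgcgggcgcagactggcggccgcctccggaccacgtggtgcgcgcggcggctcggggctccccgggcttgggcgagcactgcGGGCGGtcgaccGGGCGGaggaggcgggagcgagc

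These windows were rich in G and C, with 65.6% for Adcyap1r1, 67.2% for Sstr4 and 80% for Oprd1. CpG dinucleotides numbered 11, 28 and 34, respectively. The GC box occurred 4 times before Oprd1, once before Adcyap1r1 and not before Sstr4, and 32.7% of the 32851 windows of all genes held it. The cyclic AMP response element TGACGTCA was in none of the 3 windows and in 1.55% of all windows. The RUNX motif TGTGGT (14% of all windows) and the posterior HOX motif TTTATNG (9.81%) were also in none of them, with both strands searched and no overlap between motifs. These are matches of letters and say nothing on which factors bind.

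The receptors differed widely in level. Over both levels of the spine, Npy1r had the highest mean at 3.03 log2 RPKM, followed by Sstr4 at 2.39, Oprm1 at 1.71, Oprd1 at 1.23, Adcyap1r1 at 0.32, Npy2r at -0.30, Galr1 at -0.55, Sstr1 at -0.93, Oprk1 at -1.37 and Sstr2 at -2.35. Each gene was compared with the next in this order by an exact sign-flip permutation test of the 10 donor means (two-sided, adjusted over 9 pairs), and 6 of the 9 steps passed 0.05. The 3 that did not were Npy2r to Galr1 (difference 0.24 ± 0.79, SD, n = 10 donors, adjusted exact p = 0.348), Galr1 to Sstr1 (0.38 ± 0.62, adjusted exact p = 0.105) and Sstr1 to Oprk1 (0.44 ± 0.66, adjusted exact p = 0.0979). Neighbours among these 4 were therefore not separated, and those of the 4 that are not neighbours were not compared. Npy1r, Sstr4, Oprm1, Oprd1 and Adcyap1r1 were each separated from the next. The test covers the spread between donors only, and not an error in exon length, which is the same in every donor. Oprm1 had 16857 reads over all libraries and Npy1r 14924, with exon lengths of 8156 and 3007 bases, so their order rests on these lengths.

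The order of the means was not the same at both levels. In lumbar DRG, Oprd1 (1.67) stood 1.80 ± 0.54 log2 units above Npy2r (adjusted exact p = 0.00879, n = 10), which was the next receptor, and Sstr4, Oprm1 and Oprd1 lay close together at 2.04, 1.83 and 1.67. In sacral DRG, Sstr4 was 1.15 ± 0.41 above Oprm1 (adjusted exact p = 0.00586, n = 10), and Oprd1 and Adcyap1r1 were not separated, at 0.80 each (difference 0.00 ± 0.88, adjusted exact p = 0.986). Of the 9 steps, 3 passed the test in lumbar libraries alone and 4 in sacral libraries alone.

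**Figure D1:**
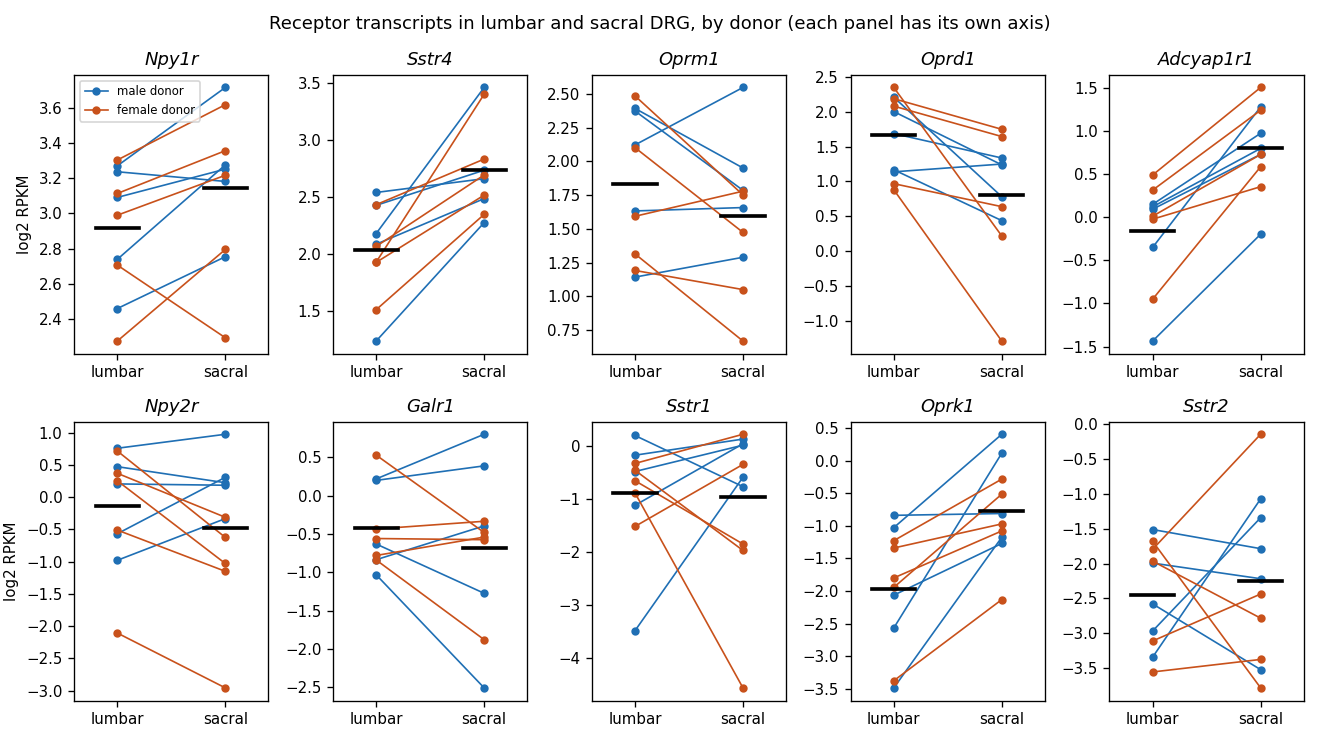
Level of each of the 10 receptors (log2 RPKM, vertical, each panel with its own axis) in the lumbar and sacral library of every donor; a line joins the libraries of 1 donor, male donors are blue and female donors orange, black bars are means of 10 and panels run from the highest to the lowest mean. All 10 lines rise for Sstr4, Adcyap1r1 and Oprk1, and 9 of 10 fall for Oprd1.

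Adcyap1r1 (ENSMUSG00000029778, mm9 chr6:55401972-55451445, plus strand), the receptor selective for the peptide PACAP, was upregulated in sacral DRG. In lumbar libraries of donors M1, M3, M5, M7 and M8 it had 0.12, 0.15, -1.44, -0.35 and 0.09 log2 RPKM, and in their sacral libraries 0.79, 0.97, -0.20, 1.27 and 0.73. In lumbar libraries of donors F3, F7, F8, F9 and F10 it had 0.31, -0.95, -0.02, 0.49 and 0.01, and in their sacral libraries 1.24, 0.58, 0.35, 1.5 and 0.73. The sacral value was higher in every donor, but the ranges overlapped across donors, with lumbar F9, for example, above sacral M5 and sacral F8. The fitted difference was 0.96 ± 0.19 (SE), or 1.94-fold (limma, adjusted p = 0.0059, n = 10 donors). Because only its sacral means were above 1 RPKM, the fit was also run with no filter over all 29049 genes, where the limma adjusted p was 0.0195. The log2 difference was 1.0 in males and 0.91 in females. Reads behind these values numbered 40 to 323 in lumbar and 114 to 605 in sacral libraries. Lumbar M5, the library with the fewest Adcyap1r1 reads, also had the largest share of mitochondrial rRNA of all libraries, at 61.4% of reads. In limma without donor M5 the difference was 0.93 (adjusted p = 0.00745).

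The gene for its ligand, Adcyap1, was high at both levels and was not called. It had 4.05 log2 RPKM in lumbar and 4.19 in sacral DRG, a difference of 0.14 ± 0.15 (SE, limma, adjusted p = 0.60). Within a library, the log2 ratio of Adcyap1r1 to Adcyap1 was higher at the sacral level in 10 of 10 donors, by 0.82 ± 0.58 (SD), a description chosen after the values were seen. The like ratio of Sstr4 to somatostatin (Sst) was higher in 3 of 10 donors and changed by -0.71 ± 1.39 (SD). Of the receptors that share the ligands PACAP and VIP, Vipr1 had at most 8 reads in any library, and Vipr2, whose values could not be turned into whole reads, did not pass the filter. The precursor Vip was low, with 1 to 47 reads per library, and was below the filter.

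Sstr4 (ENSMUSG00000037014, mm9 chr2:148221113-148226239, plus strand), an inhibitory receptor for somatostatin, was the other receptor upregulated in sacral DRG. Its lumbar values in donors M1, M3, M5, M7 and M8 were 2.09, 2.54, 1.24, 2.18 and 2.43 log2 RPKM, against 2.49, 2.66, 2.28, 3.46 and 2.74 in their sacral libraries. In donors F3, F7, F8, F9 and F10 the lumbar values were 1.93, 2.07, 1.52, 1.93 and 2.44, against 3.40, 2.70, 2.35, 2.52 and 2.84. Sacral exceeded lumbar in every donor, by as little as 0.12 in M3 and as much as 1.47 in F3, and the 2 ranges overlapped between 2.28 and 2.54. The fitted difference was 0.71 ± 0.14 (SE), or 1.63-fold (limma, adjusted p = 0.0071, n = 10 donors). Both Adcyap1r1 and Sstr4 had the same direction in 10 of 10 donors, which was the case for 2.85% of the tested genes.

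The other somatostatin receptors were lower in level, and their differences did not pass the test. Sstr1 (ENSMUSG00000035431, mm9 chr12:59312759-59315431, plus strand) ranged from -4.56 to 0.22 log2 RPKM with 2 to 93 reads per library and was higher at the sacral level in 6 of 10 donors (mean difference -0.08 ± 1.82, SD; exact sign-flip permutation p = 0.893). Its lowest values were in sacral F7, with 2 reads, and lumbar M5, with 3 reads. Sstr2 (ENSMUSG00000047904, mm9 chr11:113480656-113487319, plus strand) was the lowest of the receptors, at 4 to 48 reads, with a difference of 0.20 ± 1.36 and 5 of 10 donors higher (exact p = 0.643). The SD between donors for both was larger than the mean difference of Sstr4. Sstr3 had at most 20 reads and was without reads in 9 of the 20 libraries, and Sstr5 had at most 19 reads and was without reads in 12.

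Sst was called higher in sacral DRG, by 1.41 ± 0.36 (SE, limma, adjusted p = 0.025), in 8 of 10 donors, but it had passed the filter only through its sacral groups. With no filter it was not called (limma adjusted p = 0.0621). The call was also lost in 6 of 10 fits that left out 1 donor (kept without M1, M3, M7 or F8, adjusted p 0.00537 to 0.0863) and with no replicate block (adjusted p = 0.116). Sst was low, at 2 to 45 reads in lumbar and 10 to 64 in sacral libraries. In lumbar libraries of M1, M3, M5, M7 and M8 it had 1.07, 0.42, -2.30, -1.29 and -0.65 log2 RPKM, and in their sacral libraries 0.42, 0.83, 0.95, -0.72 and 0.92. In lumbar libraries of F3, F7, F8, F9 and F10 it had -0.99, 0.38, 0.86, -1.58 and -2.07, and in their sacral libraries 0.55, 2.21, 0.66, 1.20 and 0.96. The related precursor Cort was below the filter.

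Oprd1 (ENSMUSG00000050511, mm9 chr4:131666641-131700401, minus strand), the delta opioid receptor, which is activated by enkephalins, was the receptor called lower in sacral DRG. Donors M1, M3, M5, M7 and M8 had 1.14, 2.0, 1.17, 1.69 and 2.21 log2 RPKM in lumbar libraries and 1.25, 1.24, 0.44, 1.34 and 0.78 in sacral libraries. Donors F3, F7, F8, F9 and F10 had 2.19, 0.88, 0.97, 2.35 and 2.08 in lumbar and 1.75, -1.29, 0.64, 0.22 and 1.64 in sacral libraries. The sacral value was lower in 9 of 10 donors, with M1 the exception (at least 9 of 10 donors agreed in direction for 12.1% of tested genes), and the ranges overlapped, with sacral F7 far below all other libraries at 38 reads. The fitted difference was -0.87 ± 0.25 (SE), or 1.82-fold lower (limma, adjusted p = 0.0422, n = 10 donors). This call depended on single donors: it was lost in 8 of 10 fits that left out 1 donor and kept without F3 or F8, with adjusted p between 0.0227 and 0.109, and the difference without F7 was -0.73 (adjusted p = 0.0565).

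The precursor of the enkephalins, Penk, moved the other way. Donors M1, M3, M5, M7 and M8 had 2.49, 2.34, 2.96, 2.88 and 2.68 log2 RPKM in lumbar and 3.82, 3.66, 3.60, 3.59 and 3.96 in sacral libraries. Donors F3, F7, F8, F9 and F10 had 2.75, 3.30, 3.62, 2.68 and 2.33 in lumbar and 4.02, 3.93, 4.26, 4.19 and 3.79 in sacral libraries. Every sacral library lay above every lumbar library except lumbar F8. Penk was 1.08 ± 0.11 higher in sacral DRG (SE, 2.11-fold, limma, adjusted p = 8e-06, 10 of 10 donors), and 233 of its exon bases overlap the gene A830012C17Rik, whose reads cannot be told apart from its own there.

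Oprk1 (ENSMUSG00000025905, mm9 chr1:5578574-5596212, plus strand), the kappa opioid receptor, whose ligands are the dynorphins, was below the filter but was higher at the sacral level in every donor. It had -2.57, -2.06, -3.49, -1.03 and -0.84 log2 RPKM in lumbar libraries of M1, M3, M5, M7 and M8, and 0.12, -1.27, -1.18, 0.41 and -0.81 in their sacral libraries. In F3, F7, F8, F9 and F10 the lumbar values were -1.80, -3.38, -1.34, -1.23 and -1.94, and the sacral values -1.08, -2.13, -0.97, -0.28 and -0.51. The sacral value was the higher one in all 10 donors, by between 0.03 in M8 and 2.68 in M1, but the ranges overlapped. Among genes past the filter, 2.85% had the same direction in all 10 donors, and the share among genes below it is not given here. The mean difference was 1.20 ± 0.82 (SD, n = 10), with an exact sign-flip permutation p of 0.00195, the smallest p that 10 donors allow, among 4 receptors tested this way. When limma was run with no filter over all 29049 genes, the adjusted p was 0.0613 and Oprk1 was not called. Oprk1 reads numbered 10 to 130 in lumbar and 36 to 249 in sacral libraries, and the lumbar values of M5 and F7 rest on 10 and 16 reads.

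The mu opioid receptor Oprm1 (ENSMUSG00000000766, mm9 chr10:3308332-3588035, minus strand), the main target of morphine, was the opioid receptor with the highest mean at both levels and was not called (-0.24 ± 0.16, SE, limma, adjusted p = 0.37). In lumbar libraries it ranged from 1.14 to 2.48 log2 RPKM with a median of 1.87, and in sacral libraries from 0.67 to 2.55 with a median of 1.70, and 6 of 10 donors were lower at the sacral level. Exons of Oprm1 and Ipcef1, on opposite strands, share 96 bases. Within a library, the log2 ratio of Oprk1 to Oprd1 was higher at the sacral level in 10 of 10 donors, by 2.06 ± 0.91 (SD), and that of Oprk1 to Oprm1 in 10 of 10, by 1.43 ± 0.67. The ratio of Oprd1 to Oprm1 was higher in 2 of 10 and changed by -0.63 ± 0.61. These ratios were chosen after the values were seen and have no test. Pdyn, the dynorphin precursor, had 0 to 57 reads and Pomc, the endorphin precursor, 0 to 23 reads per library, and neither passed the filter. Oprl1, the nociceptin receptor, was not called at -0.54 ± 0.22 (SE, limma, adjusted p = 0.135).

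**Figure D2:**
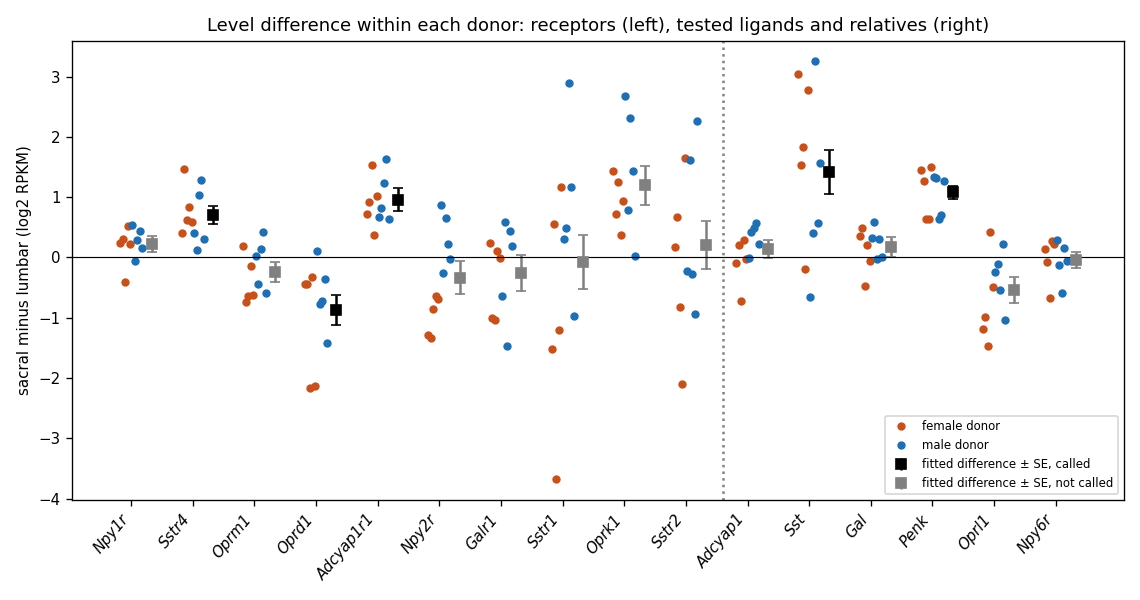
Sacral minus lumbar difference (log2 RPKM, vertical) of the 10 receptors, left of the dotted line, and of the tested ligand precursors and relatives; points are single donors (blue male, orange female) and squares with bars are the limma estimate ± SE, black where called, with the fit without filter used for the 4 receptors below the filter. Sstr4, Adcyap1r1, Oprk1 and Penk have all 10 donors above 0, and Oprd1 has 9 of 10 below 0.

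Npy1r (ENSMUSG00000036437, mm9 chr8:69221321-69230697, plus strand), an inhibitory receptor for neuropeptide Y with the highest mean log2 RPKM here, was not called for the level difference. It ranged from 2.27 to 3.30 log2 RPKM in lumbar and from 2.29 to 3.72 in sacral libraries, and was higher at the sacral level in 8 of 10 donors, by 0.23 ± 0.14 (SE, limma, adjusted p = 0.29). Its ligand precursor Npy was at 0 to 27 reads per library and Pyy and Ppy were below the filter. Of the related receptors, Npy5r had 6 to 50 reads per library and was below the filter, and Npy6r did not differ by a called amount (-0.04 ± 0.13, limma, adjusted p = 0.86). Npy4r had 8 to 74 reads in lumbar and 0 to 38 in sacral libraries and was also below the filter. It was lower at the sacral level in 9 of 10 donors, with differences from -5.99 in F10 to 0.21 in F9, and was not called with no filter (-2.07 ± 0.65, SE, limma, adjusted p = 0.113).

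Npy2r (ENSMUSG00000028004, mm9 chr3:82342305-82352008, minus strand), a second neuropeptide Y receptor found on nociceptor terminals, gave mean differences of opposite sign in the sexes. In males the lumbar values of M1, M3, M5, M7 and M8 were -0.57, 0.47, -0.98, 0.76 and 0.21 log2 RPKM and the sacral values 0.31, 0.22, -0.33, 0.98 and 0.19. In females the lumbar values of F3, F7, F8, F9 and F10 were 0.72, -2.11, -0.51, 0.37 and 0.26 and the sacral values -0.62, -2.96, -1.15, -0.31 and -1.03. The sacral value was lower in 5 of 5 females and in 2 of 5 males. The difference was -0.96 ± 0.40 (SE) in females (limma, adjusted p = 0.227) and 0.29 ± 0.40 in males (adjusted p = 0.839), and neither was called. With sample weights, which give noisier libraries less influence, the difference in females was -1.05 ± 0.33 and was called (limma, adjusted p = 0.0415). That fit called 3064 genes for the level difference over both sexes, against 978 in the fit without them. Without weights, the difference between the female and male effects was -1.25 ± 0.56 (limma, unadjusted p = 0.0369, adjusted p = 0.995), and sacral females were 1.49 ± 0.49 below sacral males (unadjusted p = 0.00637, adjusted p = 0.153). Npy2r had passed the filter only through sacral males, so these comparisons were not independent of the filter. With no filter, no receptor was called in females, between the sexes or for the interaction.

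Galr1 (ENSMUSG00000024553, mm9 chr18:82561888-82576169, minus strand), an inhibitory galanin receptor, was below the filter, at 10 to 164 reads per library. It was lower at the sacral level in 5 of 10 donors, with a mean difference of -0.26 ± 0.72 (SD, exact sign-flip permutation p = 0.271), and its values ranged from -2.51 in sacral M5 to 0.80 in sacral M3. Its ligand precursor Gal was abundant, at 4.27 log2 RPKM in lumbar and 4.44 in sacral DRG (difference 0.17 ± 0.16, SE, limma, adjusted p = 0.53). Galr2 was below the filter.

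In the main limma fit, which had equal weights and no further term, no receptor was called within a single sex or between the sexes. In males 67 genes of 14529 (0.461%) and in females 128 (0.881%) were called for the level difference. For female against male, 48 genes (0.33%) were called in lumbar and 147 (1.01%) in sacral DRG. The interaction of level and sex called 0 genes (0%) in limma, with 470 genes at an unadjusted p under 0.05, and 0 in voom on recovered reads, with 370. Adcyap1r1 was higher at the sacral level in 5 of 5 males and 5 of 5 females, with adjusted p of 0.108 and 0.0999 within each sex, and Sstr4 likewise, with 0.187 and 0.0668. The within-sex counts changed with the processing, and 1 to 4 receptors were called in some of the other fits, Npy2r among them. The share of all genes called within 1 sex in those fits is not given here. Library numbers in the labels run in 1 block for the males, apart from a longer number given to lumbar M3, and another for the females, so library numbering and sex cannot be told apart.

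The 2 mitochondrial rRNA genes took 18.1% to 61.4% of reads, and this share moved with the receptor levels. In the same fit with the share as a further term, all 6 tested receptors were called with a negative slope, against 36.3% of all tested genes with a called negative slope. Per 10 percentage points, the slope was -0.45 ± 0.13 (SE) for Npy2r, -0.41 ± 0.11 for Oprd1, -0.36 ± 0.07 for Adcyap1r1, -0.30 ± 0.06 for Oprm1, and -0.22 ± 0.06 for both Sstr4 and Npy1r, with adjusted p from 0.00045 to 0.0077 (limma). The median slope over all tested genes was -0.06. The share differed between the levels by 0.65 ± 9.45 percentage points (SD, sacral minus lumbar, higher in 3 of 10 donors). With the term, the level differences were 0.98 ± 0.16 for Adcyap1r1, 0.72 ± 0.13 for Sstr4 and -0.84 ± 0.22 for Oprd1, and all 3 remained called.

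**Figure D3:**
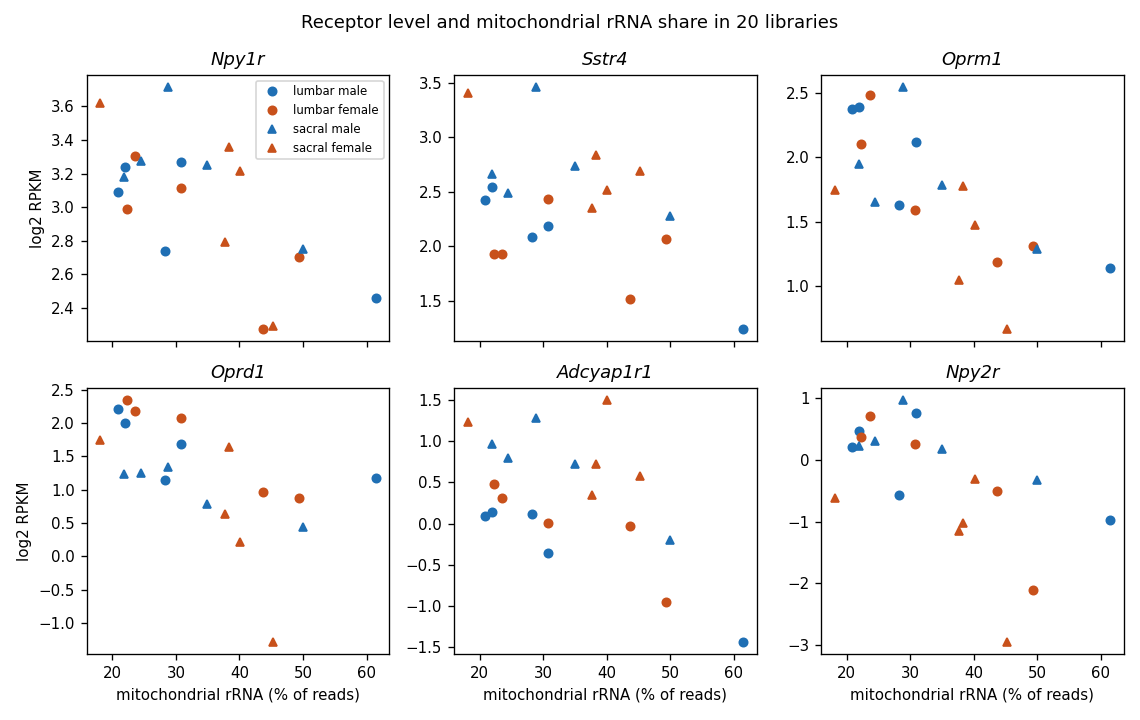
Level of the 6 tested receptors (log2 RPKM, vertical) against the share of reads in the 2 mitochondrial rRNA genes (percent, horizontal) in all 20 libraries; circles are lumbar and triangles sacral libraries, blue male and orange female. Each receptor tends to be lower where the share is higher, with lumbar M5 at the far right at 61.4%.

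Other genes of the pathways gave the following counts, beside 6.73% called over all genes tested. Of 12 ligand precursors, 4 were tested and 2 called, both higher (Penk and, only with the filter, Sst). Of 10 other receptors of the same families, 2 were tested and 0 called by limma, with 1 (Oprl1) at an unadjusted p under 0.05. Of 29 receptors for other neuropeptides, 6 were tested and 0 called by limma, with 0 at an unadjusted p under 0.05 and a median difference of -0.18. Of 35 genes for G proteins, adenylyl cyclases, channels, kinases and arrestins that work with these receptors, 32 were tested and 3 called. That count was not tested against the 6.73% of all genes. All 3 were lower in sacral DRG, and the median was -0.14 against -0.05 over all genes tested. The 3 were regulators of G-protein signalling, which shorten the action of G proteins: Rgs10 (-0.66 ± 0.12), Rgs4 (-0.58 ± 0.17) and Rgs17 (-0.47 ± 0.13), with limma adjusted p of 0.00395, 0.0454 and 0.0319. Leaving out 1 donor at a time kept the call of Rgs10 in 10 of 10 fits, of Rgs17 in 4 and of Rgs4 in 1. Of the same family, Rgs7 (-0.32 ± 0.13, limma adjusted p = 0.144) and Rgs9 (0.41 ± 0.21, limma adjusted p = 0.244) were not called. Rgs9 was higher at the sacral level in 8 of 10 donors. Both were named after their values were seen. The inhibitory G-protein subunits Gnai1, Gnai2, Gnai3, Gnao1 and Gnaz, named after their values were seen, were not called, with differences from -0.35 to -0.08.

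**Figure D4:**
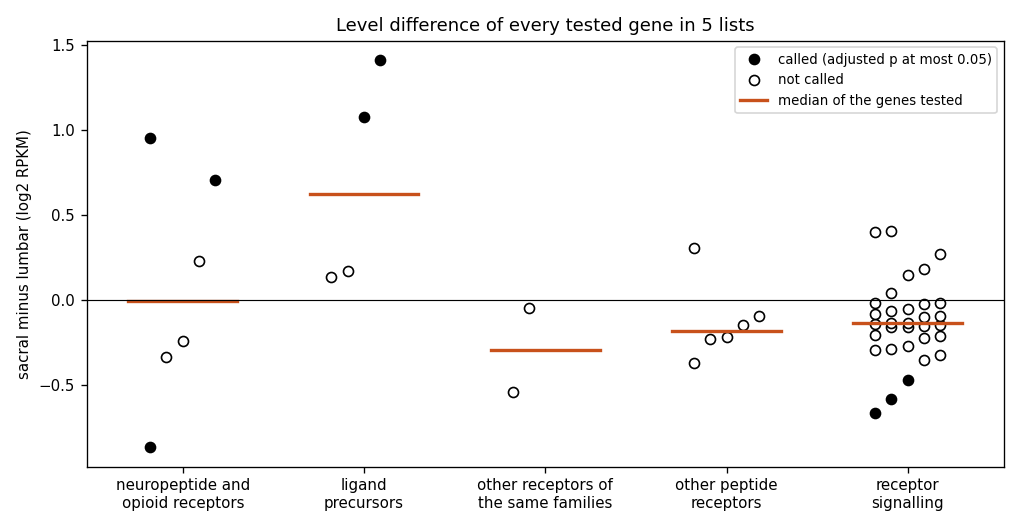
Sacral minus lumbar difference (log2 RPKM, vertical) of every tested gene in 5 lists; filled circles are called genes, open circles are not called, and orange bars are medians. The receptors hold 2 called genes above 0 and 1 below, the ligand precursors 2 above and the signalling genes 3 below.

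Some cell-type genes were also called between the levels, beside 6.73% of all genes tested. Sacral libraries were lower in 4 of 12 tested glial genes (median -0.33) and 4 of 10 large myelinated neuron genes, with 1 higher (median -0.35), and higher in 6 of 10 fibroblast and meningeal genes (median 0.50) and in 2 of 5 endothelial genes. Of 11 pan-neuronal genes 1 was called, lower (Snap25; median -0.26), and of 9 peptidergic nociceptor genes 1 was higher (Trpv1) and 1 lower (Tac1), with 0 of 8 non-peptidergic genes called by limma (1 at an unadjusted p under 0.05, median -0.24). Leaving out 1 donor at a time kept the call of Tac1 in 10 of 10 fits and of Snap25 in 9, but that of Trpv1 in 4. It also kept the glial Fabp7 in 4, the fibroblast Col1a2 in 3, Cntnap2 and Calb1 of the myelinated neuron list in 3 and 2, and the endothelial Cdh5 and Tek in 7 and 2, while the other called genes of these lists were kept in 9 or 10. The summed level of the pan-neuronal genes was 828 to 1728 RPKM in lumbar and 437 to 1494 in sacral libraries, and that of the fibroblast and meningeal genes 258 to 558 and 352 to 754, with none of the listed genes blank throughout. Spinal cord genes were near 0, at a summed 0.748 to 2.66 RPKM in lumbar and 0.760 to 2.10 in sacral libraries, and none passed the filter. Of the remaining lists, 1 of 3 cartilage genes was higher (Col2a1), and 0 of 8 skeletal muscle, 0 of 5 red cell, 0 of 4 macrophage and 0 of 1 autonomic genes were called by limma, with 1, 1, 1 and 0 at an unadjusted p under 0.05. The part of these cell types in the receptor differences was not tested.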

How the data were processed

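RNA sequencing of whole DRG (20 libraries from 10 E18.5 C57Bl6 embryos) was analysed from the deposited expression table. Per the study's methods, the authors amplified total RNA, aligned reads to mm9 (Ensembl 67) with Subread keeping uniquely mapped reads, counted them per gene with featureCounts, and applied TMM scaling and voom to deposit log2 RPKM values. Strandedness of the counting is not given in the sources used here, so reads of overlapping genes cannot be separated.

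Groups and donors were read from the sample labels. The 10 receptors and all gene lists were chosen with earlier results of these data known. Each low log2 RPKM value is a multiple of 1 read once exon length (GENCODE M1, mm9) is known, and 98.27% of values lay within 0.05 of a whole number of reads. Recovered reads summed to 19403023 to 39257771 per library, and a count of 0 allows up to 3 reads. Read numbers cover counting error only. Blanks were set to 0.5 reads where the exon length was known. For the 239 genes without a length, a blank was set to 1 log2 unit below the lowest value of the gene. No pseudocount was added.

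The log2 RPKM values were fitted with limma 3.58.1 (R 4.3.3, statmod 1.5.0), with a mean per group, donor as a random block and eBayes with trend, two-sided, adjusted over 14529 genes. The 2 libraries of a donor come from 1 embryo, so they are paired by the labels. Their deviations from the group means correlated between -0.17 and 0.68 (0.34 as the common donor correlation). Each embryo is 1 replicate, and whether embryos shared a litter is not given in the sources used here. Receptors below the filter and neighbours in level were tested with exact sign-flip permutation tests over donors. The fit was also run on simulated data. The genes named were all 10 receptors, ligand precursors and same-family receptors with reads, called genes among other peptide receptors and signalling genes (the inhibitory G-protein subunits, Rgs7 and Rgs9 were added after their values were seen), and at most 2 genes per cell-type list. Alternatives were a filter of 2 RPKM or none, 1 read for a blank, log2(RPKM + 1), no replicate block, donor as a fixed term, sample weights, the mitochondrial rRNA share as a term, voom on recovered reads and leaving out each donor.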

Additional observations from a re-analysis of the deposited data

Results flagged for a closer look

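In sacral DRG of female embryo F7, Galr1 was -1.88 log2 RPKM, far below the other 4 sacral female libraries, which lay between -0.58 and -0.33. The gap to the nearest of them was 0.844 of the range of the group. It was the only such value among 40 groups of 5 (10 receptors in 4 groups), and chance gives about 1 in 20 groups. Sacral F7 had the fewest recovered reads of all libraries (19403023) and the largest mitochondrial rRNA share of the sacral females (45.2%). This library also held the lowest value of Sstr1, Oprd1 and Npy2r, so a low value there was not particular to Galr1.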

How the results depend on the processing

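The level difference called 978 genes in the main fit, 509 with no filter, 154 with no replicate block, 3064 with sample weights and 404 (without F10) to 1608 (without F8) when 1 donor was left out. Adcyap1r1 and Sstr4 were called in each setting that tested them, except with no replicate block, where 0 receptors were called (adjusted p = 0.0639, 0.0626 and, for Oprd1, 0.192). The samples are paired by donor, so that fit ignores the pairing; with donor as a fixed term all 3 were called. Oprd1 was also lost with no filter (adjusted p = 0.109) and in 8 of 10 fits without 1 donor. Its difference kept its sign in all 19 alternatives, from -0.96 to -0.57.

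Within males, 1 receptor (Adcyap1r1) was called with sample weights and 1 with the mitochondrial rRNA term, against 0 in the main fit. Within females 4 (Npy2r, Adcyap1r1, Sstr4 and Oprd1) were called with sample weights, 2 with that term and 2 with voom on recovered reads, and 0 to 2 when 1 donor was left out (1 without M7 and 2 without F8). The share of all genes called within 1 sex in these fits is not given here. Over both sexes, sample weights called 3064 genes for the level difference, that term 1293 and voom 908, against 978 in the main fit. No receptor was called for sex or the interaction in the alternatives run. Neighbouring levels differed in 6 of 9 steps over both levels in 3 in lumbar libraries only and in 4 in sacral libraries only. The mean difference of Sstr1 turned from -0.08 to values between -0.41 and 0.32 when 1 donor was left out (above 0 without M8, F7, F8 or F10), and that of Sstr2 lay between -0.026 and 0.46 (below 0 without M8). The causes of these changes were not tested. Count models (the planned edgeR and DESeq2 fits) were not run, because the deposited values are log2 and not counts. Of the fits, only voom used the recovered reads, which could also have entered a count model. With a filter of 2 RPKM Adcyap1r1 and Npy2r were not tested. Sstr1, Sstr2, Galr1 and Oprk1 held as few as 2 to 10 reads in a library, and whether more reads would change their results was not tested.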
